A study of Mus musculus with 16 samples.

Results

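The level of Cr2, a marker of lymphoid follicles, was followed across all 16 RNA-seq libraries of the terminal ileum, together with the genes whose level rose and fell with it from mouse to mouse. The genes were chosen by their correlation with Cr2: the log2 CPM (counts scaled to the size of the library) of each gene were taken as deviations from the mean of its group, and Pearson's r with the deviations of Cr2 was computed over the 16 libraries. Of the 21965 genes in the table, 13811 passed the filter on low counts, and 131 of them, besides Cr2 itself, had an r of at least 0.8 and are called genes following Cr2 here. With Cr2 included these were 0.956% of the genes tested, and 72 genes, or 0.521%, had an r of -0.8 or less. Since r chose these genes, it is given as a description, with no test.

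Each library came from 1 male C57BL/6 mouse, in 4 groups. The fat-1 mice (Fat1+/- in the labels) were heterozygous for a transgene that encodes a desaturase of Caenorhabditis elegans, which makes n3 from n6 fatty acids in all their tissues, and the wild-type (WT) mice were their littermates. EtOH mice received a liquid diet with ethanol that was raised in steps to 6% (v/v) and held there for 3 weeks, while pair-fed (PF) mice received the control diet. There were 4 PF and 3 EtOH mice among the WT, and 4 PF and 5 EtOH mice among the fat-1, and the library totals ran from 8422645 to 11438539 counts. Library numbers 1 to 8 were PF and 9 to 16 EtOH, so the diet and the library order cannot be told apart. No gene of the immunoglobulin or T cell receptor loci was in the table.

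Some libraries stood apart by the part of the gut that their genes mark. The summed level of 9 large intestine genes was 12191 CPM in fat-1 EtOH mouse 3, 13217 CPM in mouse 4 of that group and 5024 CPM in WT EtOH mouse 2, against 183 to 289 CPM in the other 13 libraries. Anpep, a peptidase of the small intestinal brush border, had 64.5 and 83.4 CPM in fat-1 EtOH mice 3 and 4 and 6675 to 12157 CPM elsewhere, so these 2 libraries went against the label ileum. The summed level of 12 proximal small intestine genes was 14547 and 14087 CPM in fat-1 PF mice 2 and 4, 672 to 4644 CPM in the other PF mice and 96.4 to 168 CPM in the EtOH mice. Medians of r without the 3 libraries with large intestine genes stand beside those of the lists below.

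Lymphoid follicles are dense balls of B cells in the gut wall, gathered as Peyer's patches, which are most frequent in the ileum, or standing singly. In the follicle, follicular dendritic cells hold antigen on complement receptors and secrete CXCL13, which draws B cells that carry its receptor CXCR5, and in the germinal centre B cells divide and mutate their antibody genes. T cells fill the zones between follicles, lymphocytes enter through high endothelial venules, and an epithelium with antigen-sampling M cells covers the dome. Cr2 encodes complement receptor 2 (CD21), which mature B cells and follicular dendritic cells carry. A piece of gut wall therefore gives follicle RNA according to how much of such tissue lies in it, and in bulk samples fewer follicle cells and less RNA per cell cannot be told apart.

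Cr2 (ENSMUSG00000026616, GRCm38 chromosome 1, 195136811 to 195176716) ranged from no count to 669 counts per library. Its level was 6.56, 2.04, 8.55 and 14.3 CPM in WT PF mice 1 to 4, and 6.47, 0, 4.92 and 7.85 CPM in fat-1 PF mice 1 to 4. It was 9.22, 7.56 and 0.420 CPM in WT EtOH mice 1 to 3, and 9.41, 10.7, 0.820, 0.0892 and 57.2 CPM in fat-1 EtOH mice 1 to 5. Every group held at least 1 library with little Cr2, and the 4 groups overlapped. The library of fat-1 PF mouse 2 had 0 counts, for which the exact 95% Poisson interval reached 0.518 CPM, fat-1 EtOH mouse 4 had 1 count, and the exact 95% Poisson interval of fat-1 EtOH mouse 5 ran from 53.0 to 61.7 CPM (counting error only). The SD of the deviations within groups was 2.40 on the log2 scale. The deviations lay in 3 clusters, with 5 libraries from -3.94 to -1.57, 10 libraries from 0.03 to 1.56, and fat-1 EtOH mouse 5 alone at 3.68. The 5 low libraries were fat-1 EtOH mice 3 and 4, fat-1 PF mouse 2, WT EtOH mouse 3 and WT PF mouse 2. Of these, WT EtOH mouse 3 and WT PF mouse 2 were not among the libraries that stood apart by gut region.

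**Figure D1:**
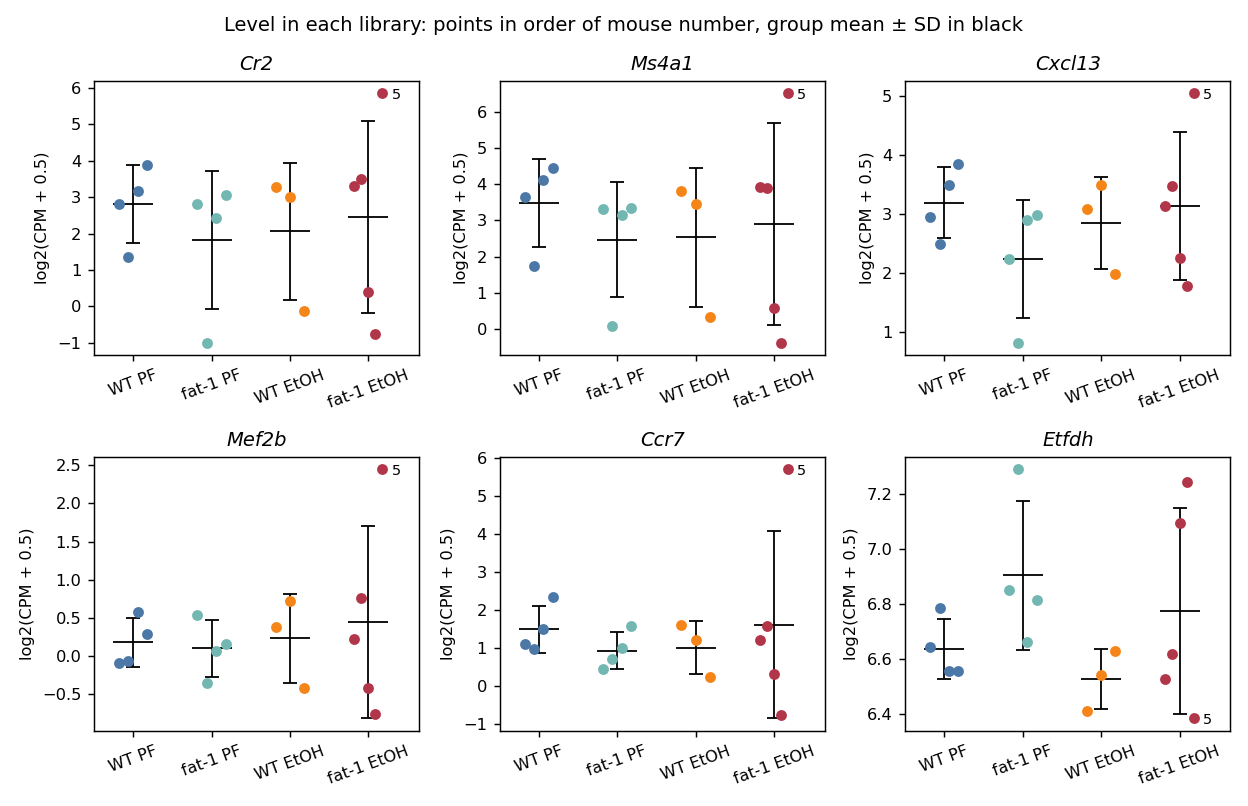
Level of 6 genes in each library as log2(CPM + 0.5), with 1 point per mouse in the order of the mouse numbers and the mean ± SD of each group in black (n = 4, 4, 3 and 5). The point marked 5 is fat-1 EtOH mouse 5, which was highest for Cr2, Ms4a1, Cxcl13, Mef2b and Ccr7 and lowest for Etfdh.

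B cell genes headed the genes following Cr2. All 131 were annotated as protein coding, 41 stood in at least 1 of the 22 marker lists used here and 90 in none. Of the summed within-group variance of all genes, 26.7% lay along the deviations of Cr2. For the 131 genes it was 81.7%, a share that their choice by r largely fixes. Fat-1 EtOH mice 3 and 4, which carried large intestine genes, had low Cr2. The part of gut region in the 26.7% was not tested. The slope, which is the change of a gene's log2 CPM per log2 unit of Cr2, had a median of 0.38 over the 131 genes, so most of them varied less than Cr2. At the limit, Pml, Tmsb4x and Smap2 lay just inside with r of 0.802, 0.802 and 0.801, and Nup210 and Mef2c just outside with 0.799 and 0.798. Tmsb4x, a thymosin that binds actin and is abundant in leukocytes, and Pml, a nuclear body protein, are expressed by many cells.

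How far the 131 genes followed Cr2 depended on the libraries used. The same limit was also met by 129 of them within the 8 EtOH libraries, by 66 within the 8 PF libraries and by 64 within both. It was met by 49 without the 3 libraries with large intestine genes, by 122 without the 2 with the most proximal genes, by 90 without the 2 libraries farthest from the median of Cr2, and by 63 with any library left out in turn. All of these limits were met by 37 genes, among them 16 of the B cell list and 14 outside every list. Over the 10 libraries of the middle cluster alone, the median r of the 131 genes was 0.577, with 119 above 0 and 19 at 0.8 or more. Over all 13810 genes besides Cr2 the median was -0.0256, with 6597 above 0 and 186 at 0.8 or more.

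Among the marker lists, B cell genes followed Cr2 most closely over all 16 libraries. Of the 29 genes tested in the B cell list besides Cr2, 23 had an r of at least 0.8, the median r was 0.914 (0.839 without the 3 libraries with large intestine genes) and the median slope 0.56, against a median r of 0.0126 over all genes. Over the 10 middle libraries the median r of the list was 0.703, below the 0.771 of the adipocyte list. Ms4a1 (CD20, a B cell surface protein; chromosome 19, 11249675 to 11266241) had 11.9, 2.83, 17.0 and 21.4 CPM in WT PF mice, 9.43, 0.561, 8.34 and 9.57 CPM in fat-1 PF mice, 13.5, 10.4 and 0.756 CPM in WT EtOH mice, and 14.7, 14.4, 0.984, 0.268 and 90.7 CPM in fat-1 EtOH mice. The same 5 libraries were low and the same 1 was high as for Cr2. Its r was 0.987 (rho 0.891), its slope 0.93 ± 0.05 (SE), and r was 0.977 within PF, 0.998 within EtOH, 0.994 without the 2 farthest libraries and 0.891 over the 10 middle libraries.

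Fcer2a (CD23, the low-affinity IgE receptor of follicular B cells) had 5.35, 1.58, 5.00 and 10.4 CPM in WT PF mice, 3.71, 0.140, 2.19 and 5.15 CPM in fat-1 PF mice, 7.16, 6.61 and 0.504 CPM in WT EtOH mice, and 6.18, 9.78, 0.738, 0 and 63.6 CPM in fat-1 EtOH mice. Its r was 0.981 with a slope of 0.92 ± 0.05. Fcmr (the IgM Fc receptor) reached 0.978, Blk (a Src-family kinase of B cells) 0.977 and Pax5 (the factor that fixes B cell identity) 0.959. Tnfrsf13c, the receptor for the survival factor BAFF, had 0.950, Bank1, a scaffold of B cell receptor signalling, 0.945, and H2-Ob, which restrains peptide loading on MHC class II, 0.946. Within PF these 7 genes had r of 0.941 to 0.993 and within EtOH of 0.954 to 0.995. Over the 10 middle libraries they had 0.495 (Fcmr) to 0.881 (Fcer2a). About 6.31% of the 75-base windows of Pax5 are shared with overlapping genes on the other strand, and whether the counting used strand is not given in the sources used here.

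Of the 6 members below 0.8, Blnk, the linker of the B cell receptor, was the only one with an r below 0, -0.407. Its level was 54.6 CPM in WT EtOH mouse 2 and 99.5 and 80.9 CPM in fat-1 EtOH mice 3 and 4, the 3 libraries with large intestine genes, and 19.8 to 52.2 CPM in the other 13. Without those 3 libraries its r was 0.187.

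**Figure D2:**
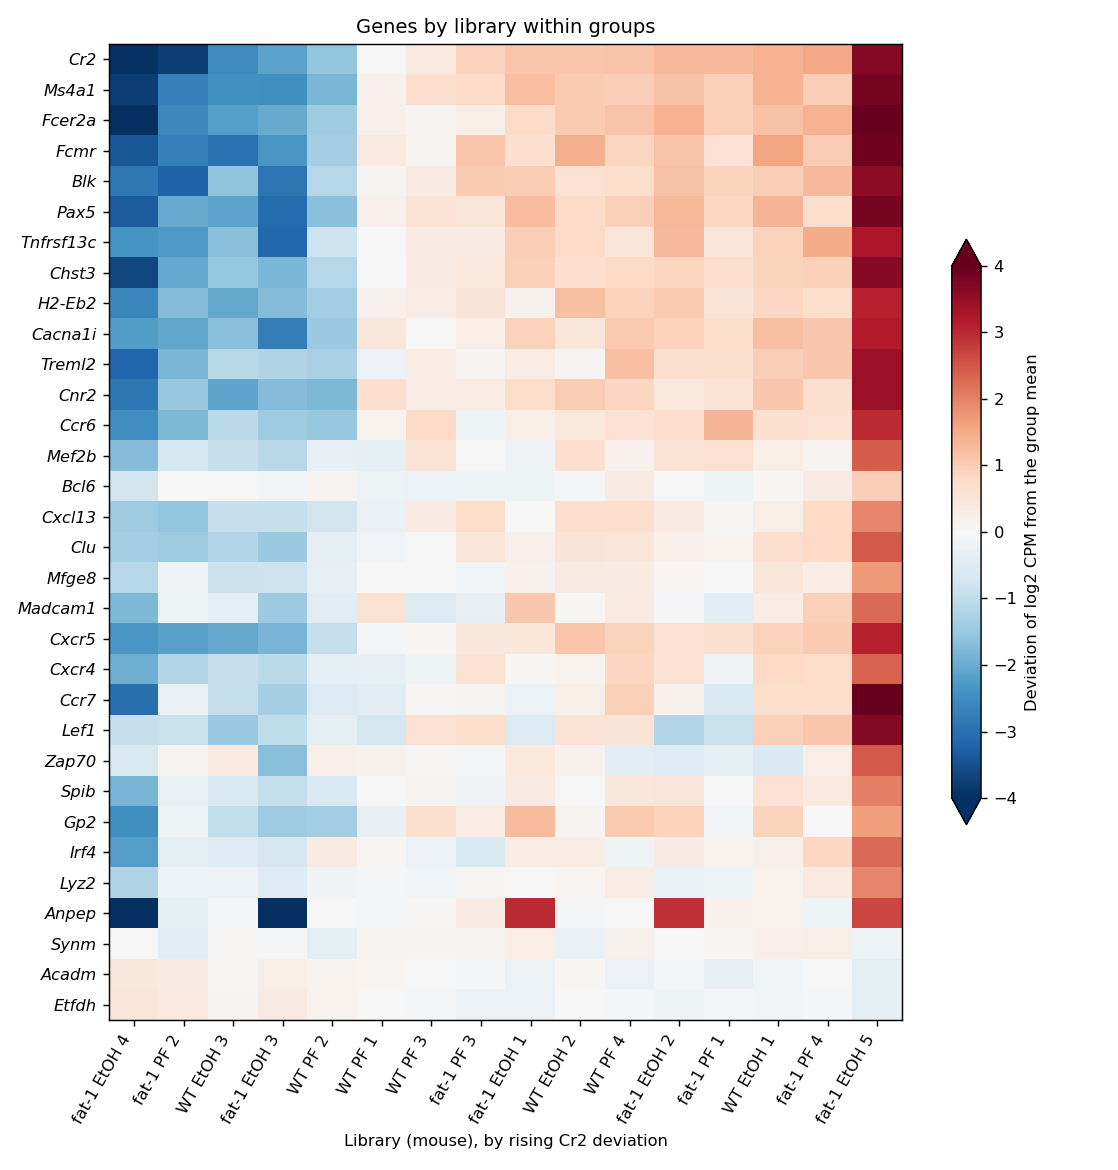
Deviation of log2 CPM from the group mean (colour, cut at -4 and 4) for 32 genes in the 16 libraries, ordered by rising deviation of Cr2. The B cell genes at the top run from blue in the 5 libraries on the left to red in fat-1 EtOH mouse 5 on the right, and Etfdh and Acadm run faintly the other way.

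Among the genes outside every list, the closest to Cr2 were Chst3, H2-Eb2, Cacna1i, Treml2 and Cnr2. Chst3, a sulfotransferase that acts on chondroitin, had 4.92, 2.15, 6.33 and 8.83 CPM in WT PF mice, 3.92, 0.421, 3.28 and 4.79 CPM in fat-1 PF mice, 6.45, 5.46 and 1.01 CPM in WT EtOH mice, and 6.84, 6.38, 0.820, 0.0892 and 45.4 CPM in fat-1 EtOH mice. Its r was 0.973 over all libraries and 0.966 over the 10 middle libraries, above the 0.891 of Ms4a1. H2-Eb2, a chain of MHC class II, had an r of 0.966, and Cacna1i, a subunit of a T-type calcium channel best known from neurons, had 0.955 at a level of 0 to 2.91 CPM outside fat-1 EtOH mouse 5 and 12.1 CPM there. Treml2, a receptor of the TREM family on B cells and macrophages, had 0.950, and Cnr2, the cannabinoid receptor of immune cells, 0.948. The next 5 were Fcamr, an Fc receptor for IgM and IgA, with 0.928, Ffar1, a receptor for long-chain fatty acids, with 0.922, Haao, an enzyme of tryptophan breakdown, with 0.919, Mybl2, a cell cycle transcription factor, with 0.916, and Btla, an inhibitory receptor of lymphocytes, with 0.914. Of the exonic windows of Mybl2, 17.1% also match other genes, so its count is uncertain. All 10 had r of 0.858 or more within PF and 0.921 or more within EtOH. Over the 10 middle libraries it ranged up to the 0.966 of Chst3 and Treml2 but was 0.361 for Fcamr, 0.484 for Cnr2, 0.582 for Mybl2, 0.612 for Ffar1 and 0.622 for H2-Eb2.

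Because these genes moved together, their promoters were searched for 3 short motifs bound by factors of B cells: the octamer ATTTGCAT of the OCT factors, the PU box GAGGAAGT of PU.1 and SPI-B, and TCCCNNGGG of EBF1, each on both strands. RefSeq promoters of 300 bases, from 250 before to 50 after the start, were found for 97 of the 131 genes, as 120 promoters, and for 10853 genes in all, as 13870 promoters. The octamer stood in 7 of the 120 promoters (5.83%) and in 1.39% of all promoters, and the PU box in 11 (9.17%) and 3.09%. The EBF1 motif stood in 10 (8.33%) and in 8.08% of all. In the 69 promoters of genes running opposite to Cr2, the octamer was in 0, the PU box in 3 and the EBF1 motif in 4. The 150 bases from 100 before to 50 after the start are shown for 3 genes following Cr2 with an octamer and 2 with a PU box (GRCm38.p6, sense strand of the gene, motif in capitals): Ccr6 on the plus strand at chr17:8235943-8236092, Cnr2 on the plus strand at chr4:135895089-135895238, Mef2b on the plus strand at chr8:70152661-70152810, Btla on the plus strand at chr16:45224237-45224386 and Cd37 on the minus strand at chr7:45238790-45238939. In Mef2b and Cd37 the capitals read as the reverse complement of the motif.
Ccr6: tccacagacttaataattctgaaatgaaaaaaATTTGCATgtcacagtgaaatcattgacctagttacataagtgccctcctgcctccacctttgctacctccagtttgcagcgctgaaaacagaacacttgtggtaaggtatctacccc
Cnr2: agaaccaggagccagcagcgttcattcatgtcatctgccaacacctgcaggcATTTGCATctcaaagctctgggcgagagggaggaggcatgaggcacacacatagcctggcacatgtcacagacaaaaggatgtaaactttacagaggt
Mef2b: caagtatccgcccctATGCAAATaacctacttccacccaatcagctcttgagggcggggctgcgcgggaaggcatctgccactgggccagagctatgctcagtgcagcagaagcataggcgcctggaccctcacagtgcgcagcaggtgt
Btla: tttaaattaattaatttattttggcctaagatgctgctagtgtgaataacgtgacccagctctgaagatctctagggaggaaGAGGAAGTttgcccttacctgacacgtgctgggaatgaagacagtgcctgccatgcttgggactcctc
Cd37: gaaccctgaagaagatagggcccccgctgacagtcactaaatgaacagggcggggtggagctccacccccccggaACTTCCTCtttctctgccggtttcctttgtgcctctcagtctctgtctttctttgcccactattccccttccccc
The motif began 68 bases before the start in Ccr6, 48 in Cnr2, 85 in Mef2b, 18 in Btla and 25 in Cd37. A match is a match of letters and was not tested as a binding site.

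Germinal centre genes followed Cr2 in part. Of 14 tested, 5 had an r of at least 0.8 and the median r was 0.754, with 0.514 within PF, 0.834 within EtOH and 0.554 without the 3 libraries with large intestine genes. The 5 were Ccr6, the receptor for CCL20, with 0.946, Mef2b, a transcription factor of germinal centre B cells, with 0.875, Il21r, the receptor for the T cell cytokine IL-21, with 0.873, Gcsam, a signalling adaptor of germinal centre B cells, with 0.825, and Klhl6, an adaptor of a ubiquitin ligase, with 0.824. An exon of Mef2b overlaps Borcs8 on the same strand. Lmo2, a transcriptional adaptor, had 0.738, and Ung, which repairs deaminated DNA and is used by all dividing cells, had -0.0450.

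Mef2b was near the limit of counting, with 0.437, 0.453, 1.00 and 0.727 CPM in WT PF mice, 0.954, 0.281, 0.547 and 0.614 CPM in fat-1 PF mice, 0.806, 1.15 and 0.252 CPM in WT EtOH mice, and 0.665, 1.19, 0.246, 0.0892 and 4.96 CPM in fat-1 EtOH mice. These were 1 to 58 counts, and its r was 0.306 over the 10 middle libraries. Bcl6, the master regulator of germinal centre B cells that epithelial and T cells also express, had 7.67 to 25.6 CPM over all libraries, an r of 0.574 (0.860 over the 10 middle libraries) and a slope of 0.10 ± 0.04.

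**Figure D3:**
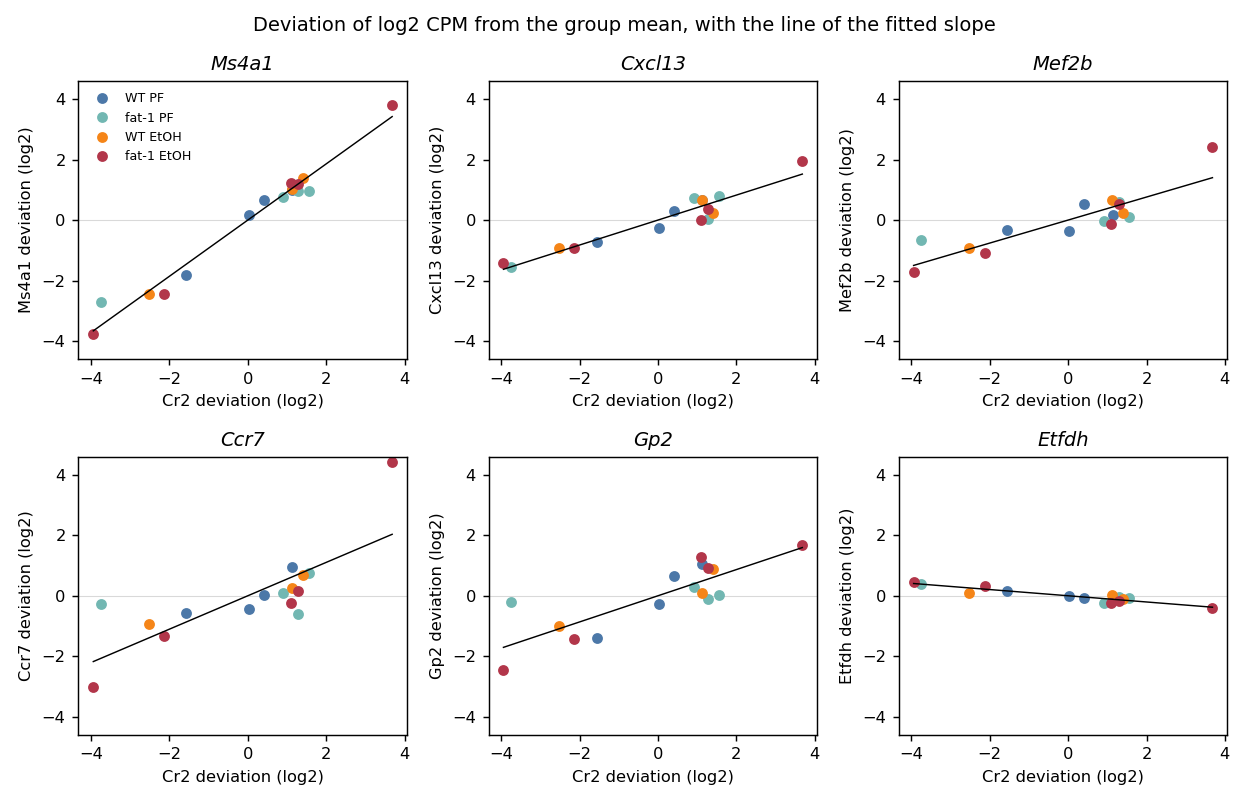
Deviation from the group mean of 6 genes (y axis, log2) against that of Cr2 (x axis, log2), 1 point per library coloured by group, with the line of the fitted slope. Ms4a1 lies along a line of slope 0.93 and Cxcl13 along one of 0.41, Ccr7 in fat-1 EtOH mouse 5 lies far above its line, and Etfdh falls slightly.

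Stromal genes of the follicle followed Cr2 in part. Of 14 tested, 4 had an r of at least 0.8: Fcer2a, which is also a B cell gene, Cxcl13, Clu and Mfge8. The median was 0.613, and 0.415 without the 3 libraries with large intestine genes. Cxcl13, the chemokine made by follicular dendritic cells (chromosome 5, 95956951 to 95961068), had 7.21, 5.09, 10.8 and 13.9 CPM in WT PF mice, 4.24, 1.26, 6.97 and 7.36 CPM in fat-1 PF mice, 7.97, 10.7 and 3.44 CPM in WT EtOH mice, and 8.27, 10.6, 4.26, 2.94 and 32.5 CPM in fat-1 EtOH mice. The 5 libraries with little Cr2 had 1.26 to 5.09 CPM and the other 11 had 4.24 to 32.5 CPM. Its r was 0.954 and its slope 0.41 ± 0.04, a smaller slope than that of Ms4a1, and r was 0.943 within PF, 0.961 within EtOH and 0.514 over the 10 middle libraries. Clu, a secreted chaperone abundant in follicular dendritic cells, had an r of 0.943, a slope of 0.45 ± 0.05 and 8.14 to 203 CPM. Mfge8, which these cells use to mark dying cells for uptake, had 0.852 with 0.643 within PF and 0.964 within EtOH. Madcam1, the addressin to which gut-homing lymphocytes bind, had 0.749, Vcam1, another adhesion molecule, 0.736, and the BMP inhibitor Grem1 0.696. Bst1, an ectoenzyme, had -0.540 within PF and 0.758 within EtOH, and Prnp, the prion protein, was lowest with -0.494. C4b, a complement component that shares 22.7% of its windows with C4a and is uncertain for that reason, had 0.485.

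Chemokine receptors of B cells headed the lymphoid chemokine and lymphotoxin list. Of 16 tested, 7 had an r of at least 0.8 and the median was 0.771, or 0.591 without the 3 libraries with large intestine genes. Cxcr5, the receptor for CXCL13, had 0.979 with a slope of 0.68 ± 0.04, Cxcr4, the receptor for CXCL12 that places B cells in the dark zone, had 0.923, and Ccr7, the receptor that leads cells to the T cell zone, had 0.780. Of the ligands besides Cxcl13, Ltb and Lta, the 2 chains of lymphotoxin with which B cells maintain follicular dendritic cells, had 0.836 and 0.761, and Tnfsf11 (RANKL), which induces M cells, had 0.830. Its receptor Tnfrsf11a (RANK) had the lowest r of the list, -0.204. Ccl19 and Ccl21a, the T-zone chemokines, did not pass the filter on low counts.

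The T cell zone list followed Cr2 less closely, and fat-1 EtOH mouse 5 stood far above the other libraries. All 22 genes tested had an r above 0, 2 of them at 0.8 or more, among them Cxcr5, and the median was 0.620. It was 0.205 within PF, 0.762 within EtOH, 0.369 without the 3 libraries with large intestine genes, 0.125 over the 10 middle libraries and 0.443 without fat-1 EtOH mouse 5. Ccr7 had 1.64, 1.47, 2.33 and 4.57 CPM in WT PF mice, 0.848, 1.12, 1.5 and 2.45 CPM in fat-1 PF mice, 2.51, 1.78 and 0.672 CPM in WT EtOH mice, and 1.81, 2.47, 0.738, 0.0892 and 51.3 CPM in fat-1 EtOH mice. In this gene fat-1 EtOH mouse 5 lay far above all other libraries. Cd2, an adhesion receptor of T cells, had an r of 0.788, the costimulatory receptor Cd28 0.722, the adaptor Lat 0.713 and Icos, a costimulatory receptor of follicular helper T cells, 0.693. The transcription factors Tcf7 and Lef1 had 0.705 and 0.696, and Zap70, the kinase of the T cell receptor, had the lowest of the list, 0.442. In Lef1, 12.7% of the windows are shared with a gene on the other strand.

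Of the covering epithelium, Spib, a transcription factor of M cells that B cells also use, had an r of 0.869, and Gp2, the receptor with which M cells take up bacteria (chromosome 7, 119442537 to 119459285), had 0.83. Gp2 had 2.19, 0.905, 4.33 and 5.82 CPM in WT PF mice, 2.54, 2.39, 3.42 and 2.82 CPM in fat-1 PF mice, 3.94, 2.20 and 0.924 CPM in WT EtOH mice, and 4.85, 3.74, 0.574, 0.178 and 6.50 CPM in fat-1 EtOH mice. In fat-1 PF mouse 2, which had no count of Cr2, Gp2 was the lowest of its group but lay close to the others, and fat-1 EtOH mouse 5 was 1.12-fold above the next library, with a counting interval of 0.781 to 1.61. Within PF its r was 0.493 and within EtOH 0.960. The other 12 genes of the list were below 0.8: Il22ra2, the soluble antagonist of IL-22, had 0.778 and Ccl9, a chemokine of the dome epithelium, -0.458, and the median of the list was 0.456, or 0.249 without the 3 libraries with large intestine genes. Of 6 high endothelial venule genes, 0 had an r of 0.8 and the median was 0.159 (0.427 without those 3 libraries), from -0.183 for Ackr1, which shares exons with Cadm3, to 0.749 for Madcam1. Glycam1, Fut7 and Selp did not pass the filter.

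**Figure D4:**
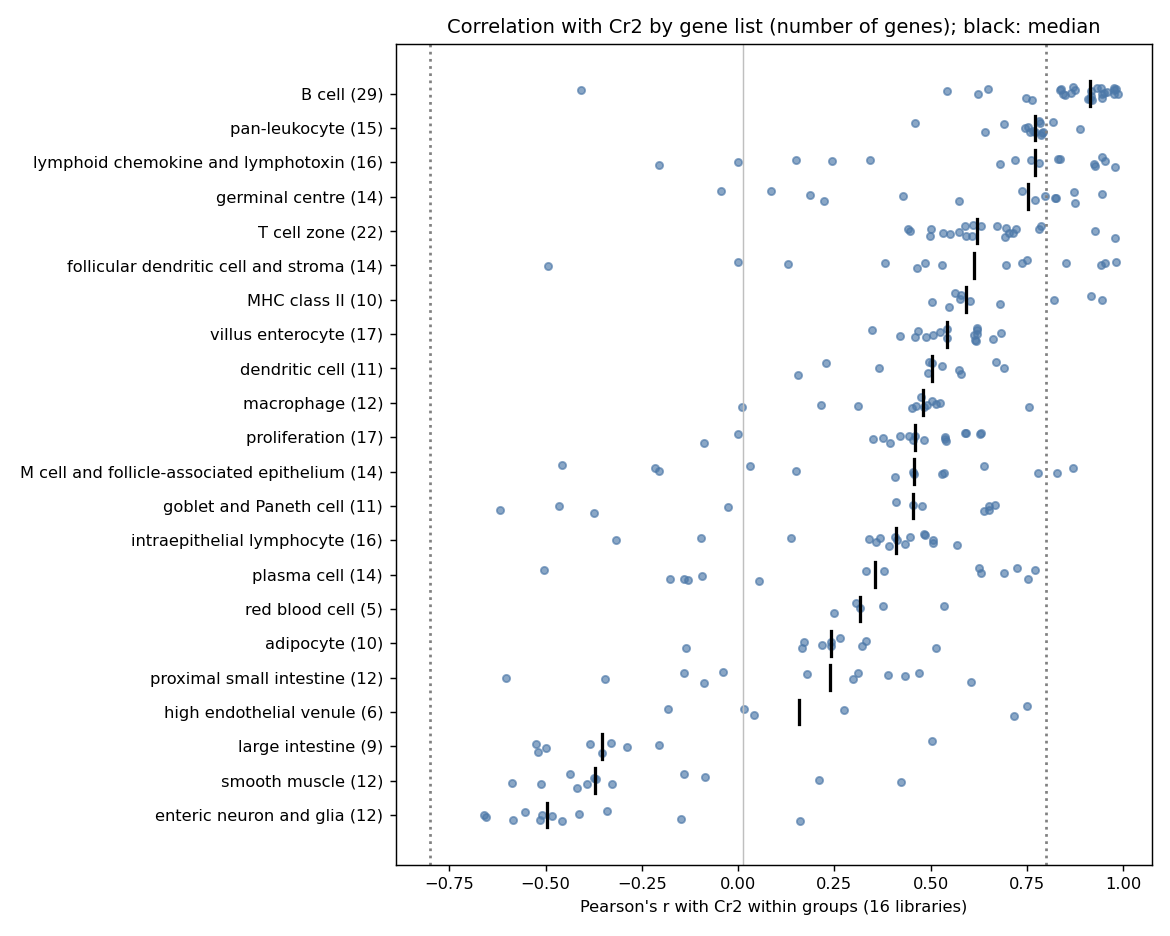
Pearson's r with Cr2 within groups over 16 libraries (x axis) for each gene of the 22 marker lists (points), with the number of genes tested in brackets and the median as a black bar. Dotted lines are at -0.8 and 0.8 and the grey line is the median of all genes. The B cell list has the highest median, 0.914, and the enteric neuron and glia list the lowest, -0.496.

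The lists of other leukocytes had lower medians within PF than within EtOH, and lower ones without the 3 libraries with large intestine genes than with them. The pan-leukocyte list had a median r of 0.771, with 2 of 15 genes at 0.8 or more, led by Cd37, a tetraspanin strongest in B cells, with 0.887. Its median was 0.412 within PF, 0.897 within EtOH and 0.509 without the 3 libraries. The MHC class II list had 3 of 10 genes at 0.8 or more and a median of 0.591 (0.145 within PF, 0.759 within EtOH, 0.119 without the 3 libraries), and its lowest member H2-DMb1 had 0.503 but shares 15.8% of its windows with H2-DMb2. No gene of the dendritic cell, macrophage, plasma cell and intraepithelial lymphocyte lists reached 0.8, and their medians were 0.503, 0.479, 0.355 and 0.409. Without the 3 libraries these medians were 0.190, -0.00975, 0.296 and -0.0684, so that those of the macrophage and intraepithelial lymphocyte lists were no longer above 0. Within PF the medians of the macrophage and intraepithelial lymphocyte lists were -0.328 and -0.347, and within EtOH 0.758 and 0.640. Irf4, a factor of plasma cells and activated lymphocytes, led the plasma cell list with 0.772, and Lyz2, the lysozyme of macrophages, led its list with 0.754.

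In the lists of villus, goblet and Paneth cells, muscle and nerve no gene reached 0.8 or -0.8. All 17 villus enterocyte genes had an r above 0 with a median of 0.544, which was -0.382 within PF, 0.782 within EtOH and -0.332 without the 3 libraries with large intestine genes. The smooth muscle and the enteric neuron and glia lists had medians of -0.372 and -0.496, which were 0.362 and 0.215 within PF, -0.705 and -0.798 within EtOH and 0.315 and 0.0624 without the 3 libraries. The medians of the villus enterocyte, smooth muscle, and enteric neuron and glia lists therefore changed sign between the diets, while those of the goblet and Paneth cell list were 0.503 and 0.622 and those of the B cell list 0.884 and 0.966. The proliferation list had a median of 0.459, the goblet and Paneth cell list 0.454, the red blood cell list 0.316, the adipocyte list 0.242, the proximal small intestine list 0.239 and the large intestine list -0.353. Without the 3 libraries these were, in the same order, 0.331, 0.198, 0.248, 0.256, -0.403 and 0.212. The part of gut region in these values was not tested.

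**Figure D5:**
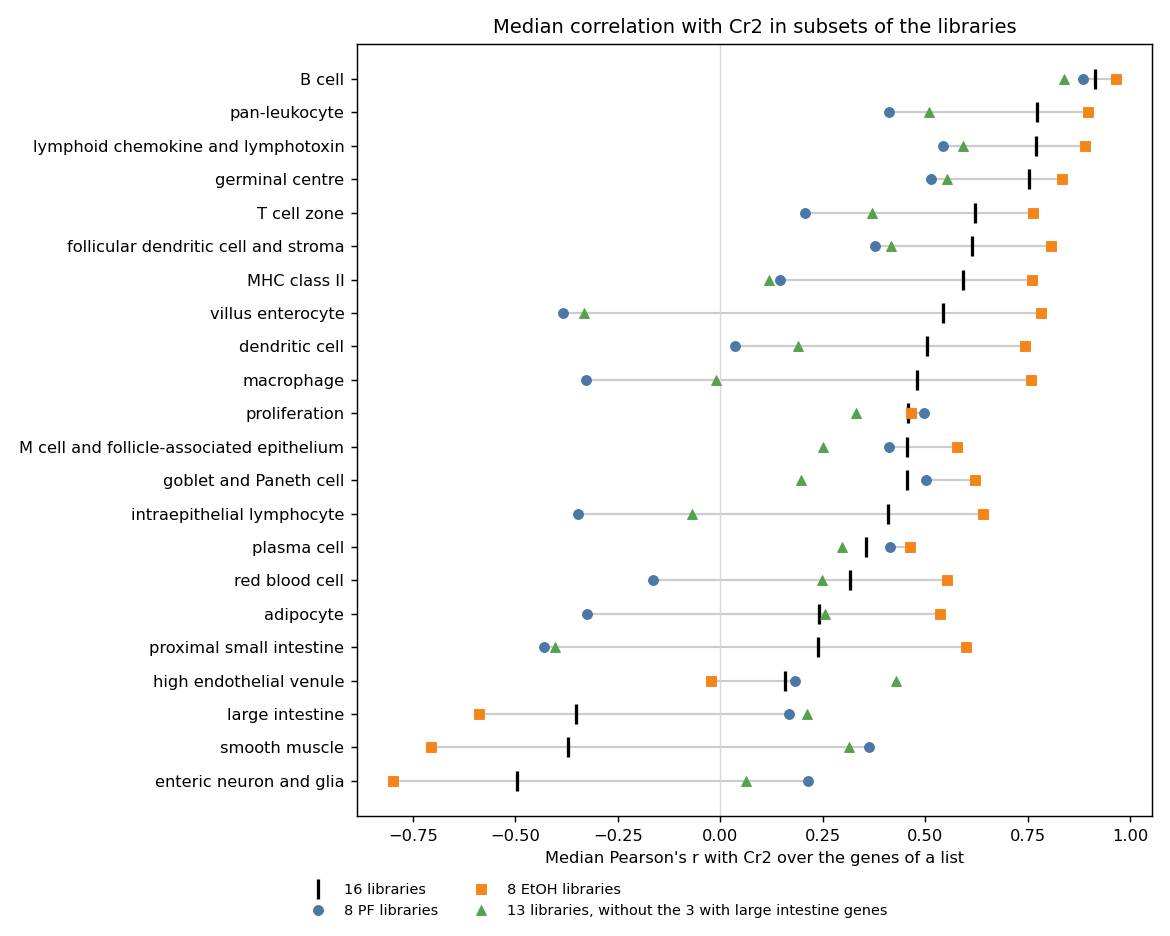
Median Pearson's r with Cr2 of each marker list (x axis) over all 16 libraries, the 8 PF libraries, the 8 EtOH libraries, and the 13 libraries without the 3 with large intestine genes. The marks lie close together for the B cell list and far apart, on both sides of 0, for the villus enterocyte, macrophage and smooth muscle lists.

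The genes running opposite to Cr2 changed little per log2 unit of Cr2. Their median slope was -0.08, and the lowest r were those of Etfdh, which passes electrons from fatty acid oxidation to ubiquinone, with -0.931, Foxo4, a forkhead factor, with -0.922, Tcaf2, a regulator of an ion channel, with -0.908, and Ipp, a kelch protein, with -0.900. Etfdh (chromosome 3, 79603788 to 79629500) had 99.6, 110, 93.6 and 93.7 CPM in WT PF mice, 115, 156, 101 and 112 CPM in fat-1 PF mice, 84.7, 92.7 and 98.5 CPM in WT EtOH mice, and 91.9, 97.7, 136, 151 and 83.1 CPM in fat-1 EtOH mice. Its slope was -0.10 ± 0.01, r was -0.927 within PF and -0.934 within EtOH, but over the 10 middle libraries it was 0.00788. Acadm and Decr2, enzymes of fatty acid oxidation in mitochondria and peroxisomes, had -0.889 and -0.865, Nipsnap1, a mitochondrial protein, -0.864, Pcgf2, a Polycomb protein, -0.862, and Gm5113 -0.865. Gm11273 had -0.874, but 43.0% of its windows match Cox5b. Without the 3 libraries with large intestine genes the r of Etfdh was -0.911, of Foxo4 -0.900, of Acadm -0.826 and of Pcgf2 -0.738. Acadm had 208 CPM in fat-1 EtOH mouse 4, 234 CPM in fat-1 PF mouse 2 and 115 CPM in fat-1 EtOH mouse 5, which were the libraries with the lowest and the highest deviations of Cr2.

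The library of fat-1 EtOH mouse 5 set the upper end of the range. Of all genes tested, 14.8% had their highest level there, and of the genes following Cr2 110 of 131, a count that the choice of these genes by r largely fixes, since Cr2 was itself highest there. Cr2 was 3.99-fold above the next library (counting interval 3.32 to 4.83), Ms4a1 4.24-fold (3.64 to 4.94) and Fcer2a 6.12-fold (4.96 to 7.61). Of the B cell list 27 of 29 genes were highest there, with a median ratio to the next library of 4.17, and of the germinal centre list 11 of 14 with 1.64, where Mef2b had 4.17-fold (2.30 to 8.09) and Bcl6 1.15-fold (0.954 to 1.39). All 22 T cell zone genes were highest there, with a median ratio of 4.67 and with 11.2-fold for Ccr7 (8.26 to 15.6) and 16.2-fold for Lef1 (8.62 to 34.2). This median was above the ratio of Cr2, while in the 10 libraries of the middle cluster their median r with Cr2 was 0.125. All 15 pan-leukocyte genes were highest there as well, as were 7 of 10 adipocyte genes, with a ratio to the next library of 2.27 for Cfd, a complement protease secreted by fat cells, and 0 of the villus enterocyte, smooth muscle, neuron and glia, and proliferation lists. Without this library 95 of the 131 genes still had an r of at least 0.8, and the median of the B cell list was 0.903.

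Whether follicle genes differed between the groups was tested by the quasi-likelihood test of edgeR, adjusted by Benjamini-Hochberg over all 13811 genes. The group means had not entered r, but the deviations within groups, which are the error of this test, had. The counts of called genes among the 131 are therefore a description, and nothing is read from their share against that of all genes. Cr2 did not pass in any comparison. The mean of the WT PF mice was 7.87 ± 5.10 CPM (SD, n = 4), that of the WT EtOH mice 5.73 ± 4.68 CPM (n = 3), that of the fat-1 PF mice 4.81 ± 3.42 CPM (n = 4) and that of the fat-1 EtOH mice 15.7 ± 23.7 CPM (n = 5). The log2 fold change was -0.70 ± 1.28 (SE) in fat-1 PF against WT PF (edgeR, adjusted p = 0.8727), -0.47 ± 1.36 in WT EtOH against WT PF (adjusted p = 0.9055), 1.69 ± 1.23 in fat-1 EtOH against fat-1 PF (adjusted p = 0.2913) and 1.46 ± 1.33 in fat-1 EtOH against WT EtOH (adjusted p = 0.7641). The interaction of genotype and diet was 2.15 ± 1.84 (adjusted p = 0.6927). Without fat-1 EtOH mouse 5 the change in fat-1 EtOH against fat-1 PF was 0.13 and that against WT EtOH -0.12. Two-sided exact permutation tests on log2(CPM + 0.5) gave p of 0.4571, 0.5714, 0.6349 and 0.8214 for the 4 comparisons, where the smallest possible were 0.02857, 0.05714, 0.01587 and 0.03571.

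The B cell and germinal centre lists had no gene past the test in any comparison, with the edgeR fit above or with DESeq2. Calls under other settings are given below. At an unadjusted p under 0.05 edgeR had 1 gene of each list in fat-1 EtOH against fat-1 PF mice and 0 in the other comparisons, and of the 131 genes following Cr2 it had 14 in that comparison (6612 of all 13811 genes), 0 in the interaction and 1 in each of the others. In the 2 PF groups 0 genes were called higher or lower (0% of all genes), and 0 of the 131 genes following Cr2 (edgeR; 1758 of all genes had an unadjusted p under 0.05, and DESeq2 called 128 genes higher and 19 lower, none of them among the 131). Between WT EtOH and WT PF mice 0.00724% of all genes were called higher and 0.0724% lower, and none of the 131 (1953 of all genes had an unadjusted p under 0.05, and DESeq2 called 77 higher and 168 lower, none of them among the 131). In the 2 EtOH groups 0 genes were called higher in fat-1 mice and 0.00724% lower, again none of the 131 (671 of all genes had an unadjusted p under 0.05, and DESeq2 called 4 higher and 1 lower), and the interaction called 0 genes (1141 at an unadjusted p under 0.05, and 0 by DESeq2). Between fat-1 EtOH and fat-1 PF mice 18.7% of all genes were called higher and 18.8% lower, and 2 of the 131 higher and 2 lower. These 4, named after their values were seen, were Syk, the kinase of the B cell receptor, with a log2 fold change of 1.11 ± 0.30 (SE, adjusted p = 0.01092), Notch2, the receptor that drives marginal zone B cells, with 0.99 ± 0.36 (adjusted p = 0.04152), Ggct, a glutathione enzyme, with -0.94 ± 0.25 (adjusted p = 0.009311), and Smap2, a protein of vesicle traffic, with -0.68 ± 0.21 (adjusted p = 0.0238).

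The median log2 fold change of the B cell list in fat-1 EtOH against fat-1 PF mice was 1.30, and of the 131 genes 1.03, against 0.05 over all genes. With the replicate number as a block both changed sign, to -0.40 and -0.15. Number 5 occurs only in fat-1 EtOH mouse 5, so the block takes that library out of the comparison. The block called 1 B cell gene and 1 germinal centre gene lower. In the follicular dendritic cell and stroma list 3 of 14 genes were called higher and 2 lower, in the chemokine and lymphotoxin list 1 of 16 higher and 2 lower, and in the T cell zone list 1 of 22 higher. All 12 smooth muscle genes, 9 of 12 neuron and glia genes and 7 of 9 large intestine genes were called higher in this comparison and all 12 proximal small intestine genes lower, and their part in the follicle gene values was not tested. In the large intestine list Car1, a carbonic anhydrase of the colon, had the largest change, 10.38 on the log2 scale (adjusted p = 0.03247), and in the proximal list Lct, the lactase of the brush border, had -10.83 (adjusted p = 7.547e-05).

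The count of called follicle genes depended on the 3 libraries with large intestine genes. Without them 13.9% of all genes were called higher and 15.8% lower in fat-1 EtOH against fat-1 PF mice, and 55 of the 131 genes following Cr2 were called higher and 1 lower, with 10 of the 29 B cell genes higher and 0 lower, and 7 of the 14 germinal centre genes higher and 0 lower. The median log2 fold change of the 131 genes was then 1.65, and that of Cr2 2.42 (adjusted p = 0.09514). The 2 fat-1 EtOH libraries left out, those of mice 3 and 4, were the 2 with the least Cr2 in that group, so that leaving them out itself raised the mean of the group. In fat-1 EtOH against WT EtOH mice 0 of the 131 genes were called without these libraries.

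With the deviation of Cr2 as a covariate, the fat-1 EtOH against fat-1 PF comparison called 5457 genes in place of 5170 (19.1% of all genes higher and 20.4% lower), and 20 of the 131 genes higher and 6 lower. Of the B cell list 2 genes were called higher and 1 lower, and of the germinal centre list 1 higher. The median log2 fold change of the 131 genes fell from 1.03 to 0.36. Nothing is read from this fall, since the covariate has a mean of 0 in every group and cannot adjust groups for follicle content. The 131 genes were chosen for their r with this covariate, which shrinks their residual spread by construction, so nothing is read from these counts. The other comparisons then called 1 gene (fat-1 PF against WT PF), 14 (WT EtOH against WT PF), 1 (fat-1 EtOH against WT EtOH) and 0 (the interaction), against 0, 11, 1 and 0 without it.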

How the data were processed

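Read counts of 16 terminal ileum libraries (poly(A), stranded kit, 1 mouse each) were analysed. The authors deposited unnormalized counts, 1 per library and Ensembl gene, obtained with htseq after alignment to mm10 by tophat2. The counting settings are not given in the sources used here, and no per-sample column was left out. Symbols, positions and exons came from GENCODE M21 (GRCm38), in which 26 of the 21965 genes are absent, and promoters from RefSeq (GRCm38.p6).

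In R 4.3.3, edgeR 4.0.16 kept 13811 genes (filterByExpr on the 4 groups), scaled the libraries by TMM and gave log2 CPM with a prior count of 2, which damps the slopes of genes with few counts. Group means were subtracted and r with Cr2 computed, with limits of 0.8 and -0.8. Groups were compared with edgeR's robust quasi-likelihood test, Benjamini-Hochberg adjustment at 0.05, the spread shared by all groups, and, for Cr2, exact permutation on log2(CPM + 0.5). Separate mice are stated, so p-values measure the spread between mice. Library totals of 8422645 to 11438539 made 3 counts worth 0.246 to 0.421 CPM. Intervals cover counting error only.

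The genes named were Cr2, the 15 highest and 10 lowest r, the 10 highest outside the lists, the 3 on each side of the limit, the highest and lowest of each list, up to 8 more of the follicle lists, and list members or genes following Cr2 with the largest called change. Of these, 3 genes, and an alternative with 1 of them as anchor, are not reported here. Others, as said there, were named after their values were seen. The members, the 22 marker lists and the tests were chosen with earlier results of these data known. The fits were run on simulated counts with a capped spread between mice and no differences of gut region. That run does not show how the fits behave on libraries as uneven as these. Alternatives were DESeq2 1.42.0, other filters, prior counts, scalings and anchors, subsets of libraries, and a replicate block.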

Additional observations from a re-analysis of the deposited data

Results flagged for a closer look

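The gap between the highest or lowest library and its nearest neighbour was compared with the range of the group for 36 genes and 23 summed gene lists, in the groups of 4 and 5 libraries. Of 177 such groups of values, 17 had a library farther from the others than Dixon's 95% limit. Chance alone flags about 1 in 20 groups of independent values, but many of these genes were chosen for their r with Cr2 and vary with it, so this is no chance value for the 17. In fat-1 PF mice, mouse 2 was lowest for Cr2 with 0 CPM (the others had 4.92 to 7.85), for Ms4a1 with 0.561 (8.34 to 9.57), for Fcmr with 0.140 (3.07 to 4.51), for Blk with 0 (3.29 to 4.42), for Pax5 with 0.561 (4.10 to 5.19) and for H2-Eb2 with 0.561 CPM (3.39 to 3.93). This mouse also had the highest summed level of proximal small intestine genes, 14547 CPM, but mouse 4 of the group had 14087 CPM of them and the highest Cr2 of the group, 7.85 CPM, and the part of that in its B cell values was not tested. In WT PF mice, mouse 2 was lowest for Synm, an intermediate filament of muscle, with 40.3 CPM (56.3 to 58.9).

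In fat-1 EtOH mice, mouse 5 was highest for Lef1 with 17.96 CPM (the others had 0.425 to 0.760), for the summed follicular dendritic cell and stroma list with 978 CPM (372 to 454) and for the summed chemokine and lymphotoxin list with 626 CPM (190 to 250). Mouse 2 of that group was lowest for the summed high endothelial venule list with 64.97 CPM (102 to 117), and mouse 4 for the plasma cell list with 1438 CPM (1764 to 1820). In WT PF mice, mouse 2 was highest for the plasma cell list with 2541 CPM (1787 to 1875) and mouse 4 lowest for the villus enterocyte list with 48232 CPM (68870 to 71241). In fat-1 PF mice, mouse 4 was highest for Madcam1 with 5.03 CPM (1.802 to 2.106), and mouse 3 for the MHC class II list with 5282 CPM (1458 to 1750) and for the enteric neuron and glia list with 37.2 CPM (32.1 to 32.6). No interaction of genotype and diet passed the test for these genes.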

How the results depend on the processing

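The number of genes following Cr2 was 131 and that running opposite 72. Counts outside 1.5 times these were 29 opposite with Spearman's rho, 197 following with the DESeq2 size factors and transformation, 64 following with a filter of 10 counts in every library (fewer genes tested, and Cr2 kept only as anchor), 9 opposite without subtraction of group means, and 146 opposite with the replicate block. In subsets of libraries, where fewer points give higher r by construction, they were 514 and 409 in PF, 990 and 1010 in EtOH, 388 and 239 without fat-1 PF mice 2 and 4, and 150 opposite in the 10 middle libraries, a subset chosen after seeing the data. Leaving out 1 library gave 78 (without fat-1 EtOH mouse 4) to 318 (without fat-1 PF mouse 2) following and 33 (without fat-1 EtOH mouse 4) to 182 (without WT EtOH mouse 3) opposite. The median r of the B cell list, 0.914, was 0.878 to 0.952 with 1 library left out, 0.836 with the filter of 10 counts, 0.839 without the 3 libraries with large intestine genes and 0.703 in the 10 middle libraries. In those 10 the r of Etfdh was 0.00788, of Gm5113 0.00293, of Pml -0.0531, of Tmsb4x -0.0878 and of Smap2 -0.567, opposite in sign to all 16, as were 33 more of the 126 genes named besides Cr2, all between -0.8 and 0.8 over 16, such as Cd28 (-0.225) and Zap70 (-0.463). Replicate number 5 occurs only in fat-1 EtOH mouse 5, so the replicate block takes that library out of the fits. The log2 fold change of Cr2 changed sign with the replicate block in fat-1 EtOH against fat-1 PF (-0.047, adjusted p = 0.982) and against WT EtOH (-0.076, adjusted p = 0.9911), as did the medians of the B cell list (-0.40 and -0.30) and of the genes following Cr2 (-0.15 and -0.26). It ranged from 0.13 to 2.03 and from -0.12 to 1.99 in these 2 comparisons with 1 library left out, from -1.04 to -0.24 in fat-1 PF against WT PF, from -1.01 to 0.089 in WT EtOH against WT PF and from 0.59 to 2.69 in the interaction, and passed the test under no alternative. In fat-1 EtOH against fat-1 PF, 4 genes following Cr2 were called and 0 of the B cell list. Under the alternatives these were 8 following with DESeq2, 1 B cell gene with the replicate block, 1 following when only the 2 groups were fitted, 56 and 10 without the 3 libraries with large intestine genes and 26 and 3 with Cr2 as covariate, and 2 to 12 and 0 to 1 with 1 library left out. In WT EtOH against WT PF, where 0 were called, they were 2 and 1 with only the 2 groups fitted and 1 and 1 with the covariate, which also called 1 and 1 in fat-1 PF against WT PF. The loss of fat-1 EtOH mouse 5 with the replicate block follows from the design. The cause of the other shifts was not tested. Same-numbered mice of different groups did not deviate together (mean correlation of deviations -0.0225 over 21 pairs, 0.00703 over 74 others), so these numbers were not taken as pairs. Of the values of r under the alternatives, for single genes at 0.8, -0.8 or beyond, 1247 moved by less than their spread with libraries left out, 161 by more, and 5 changed sign. Of the called log2 fold changes of single genes, 718 kept their call and 96 kept only their direction. At 3 counts for 0.246 to 0.421 CPM, Mef2b, Lta, Tnfsf11, Gcsam and Lef1 were near the limit of counting, with at most 14, 11, 12, 19 and 10 counts outside fat-1 EtOH mouse 5.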

Other observations

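Beside B and T cell genes, other leukocyte genes were high in the library of fat-1 EtOH mouse 5. Of the dendritic cell list 9 of 11 genes had their highest level there, with a ratio to the next library of 13.7 for Fscn1, an actin bundler of migrating dendritic cells, and of the macrophage list 9 of 12, with 3.56 for Lyz2. Of the intraepithelial lymphocyte list 6 of 16 were highest there, with 9.32 for Cd8b1, a chain of the CD8 receptor that conventional T cells carry, and 0.382 for Gzmb, a granule protease. The largest ratio of all genes tested was 17.0, that of Cd209b, a lectin of macrophages in lymphoid tissue, which was singled out after the values were seen.

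Over the 10 middle libraries the genes closest to Cr2 by list were not those closest over all 16. The adipocyte list had a median r of 0.771 with 9 of 10 genes above 0, above the 0.703 of the B cell list, and over all 16 libraries its median was 0.242. The red blood cell list had 0.677 and the MHC class II list -0.411, against 0.316 and 0.591 over all 16. No explanation of these values was tested.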
